A study of Mus musculus with 1037 samples.

Results

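The cells compared are those of a late catagen stage of the mouse hair follicle (CatVII, postnatal day 18) that were titled apop or alive. They were taken from the counts table by the start of the title, and cells with 2000 or more detected genes were kept, spike-ins left out. This gave 92 apop cells, beside 61, 57 and 7 alive cells in the index groups explained later, out of 1036 cells with counts, of which 463 have a known stage and pass the same filter. A single apop cell whose labels name different stages was left out. Both groups came from wild type mice, from skin, and are labelled as hair follicle epithelial cells of the upper outer root sheath (ORS). According to the sorting scheme, cells with Sca1 or with the lineage proteins CD31, CD117, CD140a or CD45 were removed, and CD34+ Itga6+ cells were then split by annexin V and DAPI, with the alive gate given as annexin V-negative and DAPI-positive. DAPI enters cells whose membrane has failed, and for its other sorts the study generally gives living cells as DAPI-negative. The wording for this sort conflicts with those gates, and which of them the title alive followed is not stated. No source used here spells out the apop gate beyond its title. Cells of 3 to 6 mice were pooled before the sort and no animal is named, so each title is 1 sample. No test between the groups was possible, no p-value is given, and the titled sort and the plates that held it cannot be told apart. The sequencing index in the titles splits each group into a series 1 (47 apop and 61 alive cells) and a series 2 (45 and 57). Their ranges of index numbers overlap, and 7 alive cells lie outside both. The meaning of this split is not stated, and values within each series are given beside the pooled ones.

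In catagen the lower follicle dies by apoptosis, and epithelial cells that stay behind take up the corpses, while the stem cells of the upper ORS are kept for the next growth phase. A cell that enters apoptosis exposes phosphatidylserine on its surface, and annexin V binds that lipid, so a cell can bind annexin V before its membrane breaks or its RNA is lost. Immediate early genes are switched on within minutes of a stimulus without new protein synthesis, and their transcripts are short-lived. They also respond to the enzymes and heat used to take skin apart.

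The groups differed in depth. Counts of annotated genes per cell had a median of 91167 in apop cells (quartiles 39584 and 262470) and 415779 in alive cells (250494 and 618653), and the groups overlapped. Summed, these came to 15483893 and 55537430 counts. The ERCC spike-ins, RNAs added to each well in equal amount, were shallower in apop wells too, with medians of 7170 and 36367 counts. Annotated counts per ERCC count were therefore not lower in apop cells: the median was 14 (quartiles 11.8 and 16.9) against 11.3 (9.70 and 13), with 13.6 against 11.1 in series 1 and 14.3 against 11.5 in series 2. With all gene identifiers counted, the medians were 64.4 and 58.5. The share of annotated counts from the mitochondrial genome was 10.7% and 11.4%. Fewer apop cells passed the filter, 65.2% (exact binomial interval 56.8 to 73.1) with 49 cells that failed, against 80.1% (73 to 86.1) with 31 that failed. Of the cells that did not pass, the median count was 920 in apop and 414 in alive wells.

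At the depth of each cell, detected genes had a median of 4576 in apop and 5090 in alive cells. When every cell was thinned to 20000 counts of annotated genes, which left out 12 apop cells and 1 alive cell, the order turned: the median was 3450.5 (quartiles 3163 and 3666) in 80 apop cells and 3280.5 (3122 and 3565) in the alive cells. The quartile ranges overlapped. The medians were 3419.5 and 3387.5 in series 1 and 3492 and 3268 in series 2. At 50000 counts they were 4284.5 and 4011.

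**Figure D1:**
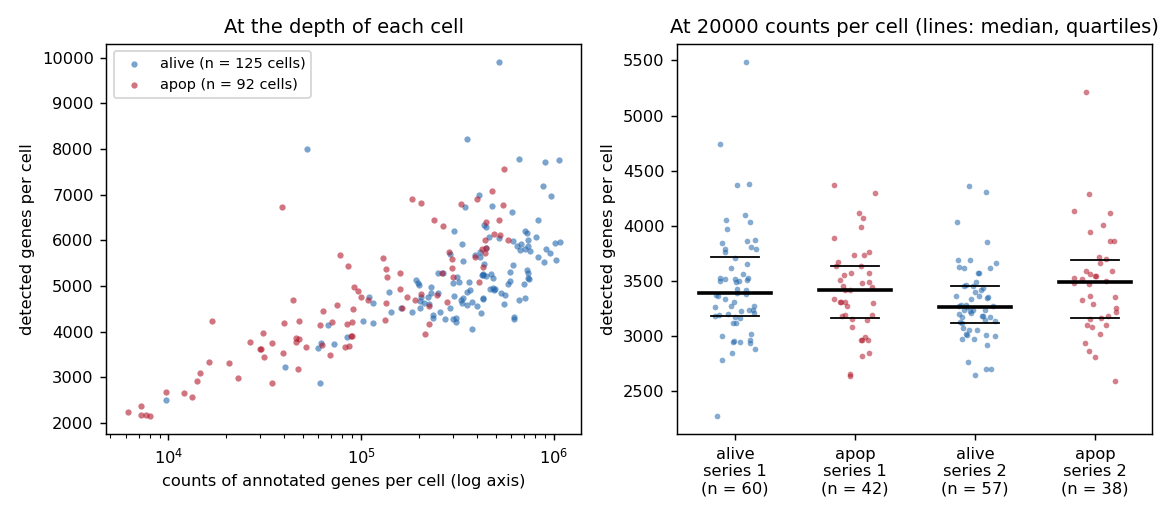
Detected genes against counts of annotated genes per cell on a log axis (left), and detected genes per cell at 20000 counts by titled group and index series (right); each point is 1 cell, thick lines are medians and thin lines quartiles. Apop cells lie at lower counts, with a median of 91167 against 415779, and at equal depth the medians lie between 3268 and 3492 genes.

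Expression is given as CPM, the estimated counts of the gene summed over the cells of a title per 1000000 summed counts of annotated genes. A ratio is the log2 of apop over alive CPM, below 0 where apop cells were lower, with a 95% interval given by an exact binomial interval on how its counts were split. Smart-seq2 reads carry no molecular identifiers and are not independent molecules, so these intervals hold counting error alone and leave out the spread between cells and between animals. Intervals on shares of cells likewise cover the counting of cells only and do not compare the titles, each of which is 1 sample. In sums over cells, fewer cells that express a gene and less RNA per cell cannot be told apart, so shares of cells with a count at 20000 counts per cell stand beside the sums. Over the 13806 genes with 100 or more counts, the median ratio was −0.01 (quartiles −0.48 and 0.39). The gap reached 2-fold in 1188 genes that were higher in apop cells (8.6%) and 1791 that were lower (13%). Most of these were genes of few counts. Of the 4269 genes that reached 50 CPM in either group, 70 were 2-fold or more higher (1.64%) and 61 were 2-fold or more lower (1.43%). Among cells of 50000 to 300000 counts, a range chosen after the data were seen (44 apop and 36 alive cells), 1245 genes (13.1%) were 2-fold or more higher and 975 (10.2%) were 2-fold or more lower, so the excess of lower genes did not hold there.

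The ratios of single genes were poorly shared between the index series. The ratio in series 1 and that in series 2 had a Pearson correlation of 0.0059 over all genes tested in both and of 0.16 over those at 50 CPM or more. This is a description across genes, which are not independent replicates. At 200 CPM or more, over 832 genes, it was 0.37. Ratios below 0 in both series were found for 26.9% of all genes tested, ratios above 0 in both for 24.4%, and below 0 in both for 23.6% of those at 50 CPM or more. At 200 CPM or more, 4 genes were 2-fold higher and 10 were 2-fold lower in apop cells. The median ratio rose with transcript length, from −0.28 at 500 bases or under and −0.14 at 500 to 1000 bases to 0.03 above 5000 bases.

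Immediate early genes were lower in apop cells as a group. All 30 genes of the list were tested. Of these, 25 had a ratio below 0, beside 50.9% of all genes tested, 12 were 2-fold or more lower, beside 13%, and 1 was 2-fold or more higher, beside 8.6%. The median ratio of the list was −0.92 beside −0.01 for all genes. Among the 23 members at 50 CPM or more, 20 were below 0 (44.9% of all genes at that level), 18 were below 0 in both index series, 8 were 2-fold or more lower and none was 2-fold or more higher, with a median of −0.90 beside 0.05 for all 4269 genes at that level. Over the same 30 genes, where they had a count, the median was −0.87 in series 1 and −0.84 in series 2, −0.89 at 20000 counts per cell, −1.02 as a mean that weights cells equally and −1.07 among cells of 50000 to 300000 counts.

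Promoters of 3 genes of the list, whose windows carried a motif of the CREB and ATF family of factors, are shown ahead of their values. The windows run from 250 bases before to 50 after the start of the transcript marked canonical in the GENCODE annotation. They are in build GRCm39 and 5′ to 3′ on the strand of the gene: Dusp1 at chr17:26727444-26727743 (minus strand), Fos at chr12:85520408-85520707 (plus strand) and Atf3 at chr1:190915488-190915787 (minus strand). Capitals mark the core TGACGT, or the full palindrome TGACGTCA that contains it, on either strand.
Dusp1: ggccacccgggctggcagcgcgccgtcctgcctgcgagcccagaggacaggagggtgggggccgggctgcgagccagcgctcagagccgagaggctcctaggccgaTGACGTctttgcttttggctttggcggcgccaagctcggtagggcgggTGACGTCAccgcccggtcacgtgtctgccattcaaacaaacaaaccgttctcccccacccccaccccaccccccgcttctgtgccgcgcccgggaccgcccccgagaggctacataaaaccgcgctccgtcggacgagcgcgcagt
Fos: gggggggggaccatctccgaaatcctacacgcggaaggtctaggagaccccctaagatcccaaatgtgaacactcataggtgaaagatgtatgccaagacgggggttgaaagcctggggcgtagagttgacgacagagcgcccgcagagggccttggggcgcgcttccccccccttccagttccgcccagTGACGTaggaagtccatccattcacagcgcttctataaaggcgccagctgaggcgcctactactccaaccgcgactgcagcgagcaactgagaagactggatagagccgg
Atf3: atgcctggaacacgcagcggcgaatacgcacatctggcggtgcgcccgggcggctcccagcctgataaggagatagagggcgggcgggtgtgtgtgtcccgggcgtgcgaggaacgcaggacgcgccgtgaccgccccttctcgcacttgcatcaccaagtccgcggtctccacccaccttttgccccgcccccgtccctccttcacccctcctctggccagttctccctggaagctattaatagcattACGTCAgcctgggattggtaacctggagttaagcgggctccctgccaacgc
The core was in 11 of the 30 promoters of the list (36.7%) and in 1370 of 11988 promoters of tested protein-coding genes (11.4%). The palindrome was in 5 of the 30 (16.7%) and 388 of the 11988 (3.24%). The AP-1 motif TGACTCA was in none of the 30 and in 3.73% of all promoters, and the CArG box, to which serum response factor binds, was in 2 of the 30 (6.67%) and in 1.30% of all promoters. Both strands were searched. The motifs were chosen with the windows in view, and a match describes the letters in the window only.

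Genes of the AP-1 transcription factor, a dimer of Fos and Jun proteins, were mostly lower in apop cells. *Fos* was at 498 CPM in apop and 975 CPM in alive cells, a ratio of −0.97 (−1.0 to −0.93), with −0.87 in series 1 and −1.15 in series 2. Its level per cell ran from 0 to 6300 CPM around a median of 0 in apop cells, and from 0 to 10996 CPM around a median of 50.2 in alive cells. The groups overlapped over most of this range, and the share of cells with a count at equal depth was 33.8% (27 of 80, 23.6 to 45.2) against 53.2% (66 alive cells, 44.1 to 62.2). *Fosb* was at 415 and 890 CPM (−1.10), but 1 apop cell held 51% of the apop counts. A count of *Fosb* was found in 27.5% of apop and 45.2% of alive cells. *Jun* was at 888.5 and 1596 CPM (−0.84, with −0.84 and −0.93 in the series), and its median per cell was 241.1 against 780 CPM. The share of cells with *Jun* was 70% (58.7 to 79.7) and 87.1% (79.9 to 92.4). *Jund* was at 36.9 and 91.9 CPM (−1.32), unevenly over the series (−2.29 and −0.28). *Junb* was at 175.5 and 157.3 CPM (0.16, with 1.07 and −0.84 in the series) and *Fosl2* at 477 and 504 CPM (−0.08). *Fosl1* and *Maff* were under 4 CPM in both groups.

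*Atf3*, a stress-induced repressor of the ATF family, was at 136.9 and 282.96 CPM (−1.05, −1.11 to −0.98). A single apop cell held 61.6% of the apop counts and a single alive cell 19.4% of the alive counts. The series gave −0.64 and −2.55, and the share of cells with a count was 16.3% (13 of 80, 8.95 to 26.2) against 29% (36 alive cells, 21.2 to 37.9). *Egr1*, a zinc finger factor that follows growth signals, was at 699 and 1207 CPM (−0.79, with −0.58 and −1.07 in the series), and was found in 46.3% and 58.9% of cells. *Egr2* (−0.13) and *Egr3* (0.14) were near 0 in the pooled sums. As a mean that weights cells equally they were at −0.43 and −0.95. The series gave −0.46 and 0.64 for *Egr2* and 0.60 and 0.20 for *Egr3*.

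The orphan nuclear receptor *Nr4a1* (ENSMUSG00000023034.7, chromosome 15 of GRCm39 from 101151980 to 101172681) had the lowest ratio of any gene that passed the naming rule, at 146.02 and 565 CPM (−1.95, −2.01 to −1.89). It was the same in both series, −1.88 and −1.87, and 27.5% of apop cells had a count against 39.5% of alive cells. Here too 1 apop cell held 40.6% of the apop counts, and 1 alive cell 14.6% of the alive counts. Its relatives *Nr4a2* and *Nr4a3* had low counts, at 1.29 and 7.67 CPM (−2.57) and at 1.03 and 10.2 CPM (−3.31).

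Of 5 feedback regulators in the list, all but *Btg2* were lower in apop cells. *Dusp1*, a phosphatase that switches off MAP kinases, was at 373 and 915 CPM (−1.29, with −1.10 and −1.70 in the series), and its median per cell was 0 against 90.9 CPM. At 20000 counts per cell its ratio was −0.75. *Dusp6*, the ERK phosphatase, was at 56.8 and 127.2 CPM (−1.16, with −1.23 and −1.16). *Zfp36*, which speeds the decay of AU-rich transcripts, was at 178.4 and 364 CPM (−1.03), with a median per cell of 17.7 against 57.3 CPM. *Socs3*, an inhibitor of cytokine receptors, was at 56.2 and 72.6 CPM (−0.37), and *Btg2*, an antiproliferative cofactor, at 120 and 114.6 CPM (0.07).

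Krüppel-like factors and growth regulators in the list were mostly lower. *Klf4*, which is also a factor of epidermal differentiation, was at 180 and 346 CPM (−0.95, with −1.03 and −0.92), with a median per cell of 110 against 205.6 CPM. *Klf6* was at 126.7 and 222.9 CPM (−0.81), and *Myc* at 74.3 and 143.4 CPM (−0.95). *Rhob*, a small GTPase, was at 88.3 and 164.4 CPM (−0.90). *Klf2*, at 1.61 and 11 CPM, lies on the other strand from *Eps15l1*, and reads of such pairs cannot be told apart without strand. *Ccn1*, a matricellular protein and YAP target, was at 224.9 and 543 CPM (−1.27, with −1.31 and −1.40), yet more apop than alive cells held a count (62.5% and 48.4%), so no order is read from its share. *Ccn2* was at 344 and 479 CPM (−0.48), with a count in 67.5% of apop and 62.9% of alive cells, so its share gives no order either. *Ier2* was at 65.5 and 105.6 CPM (−0.69), with 52.3% of the apop counts in 1 cell. Beside *Junb*, *Egr3* and *Btg2*, the members above 0 were *Ier3*, at 25.1 and 18.1 CPM (0.47), and *Ier5*, at 7.23 and 1.64 CPM (2.14), with 57.1% of its apop counts in 1 cell.

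**Figure D2:**
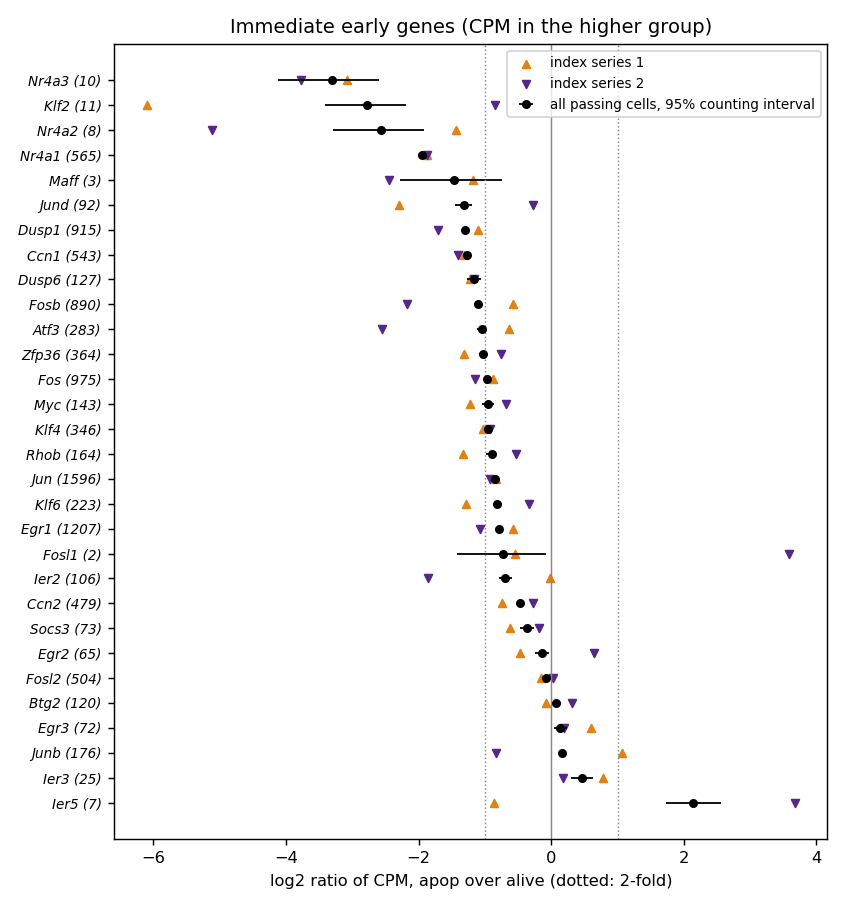
Log2 ratio of apop over alive CPM for the 30 immediate early genes, ordered by ratio, with the CPM of the higher group in brackets; black points with bars are all passing cells with the 95% counting interval and triangles are the index series. The black points of 25 genes lie below 0, and the 2-fold lines are dotted.

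The list was also summed in each cell. The counts of all 30 genes at 20000 counts per cell summed to a median of 45 in apop cells (lowest 11, highest 1312) and 79.5 in alive cells (lowest 5, highest 1650). The median was 47.5 against 100.5 in series 1 and 43 against 76 in series 2. The ranges overlapped, and the upper quartile was 81 in apop and 223.5 in alive cells. With a second random draw of counts the medians were 42.5 and 84. A cell had a count for a median of 9 of the 30 genes in the apop and 11 in the alive group. At least 15 of the genes were found in 15.0% of apop cells (12 of 80, 8.0 to 24.7) and 31.5% of alive cells (39 alive cells, 23.4 to 40.4). At least 5 were found in 92.5% and 94.4%, so few cells of either group lacked them.

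**Figure D3:**
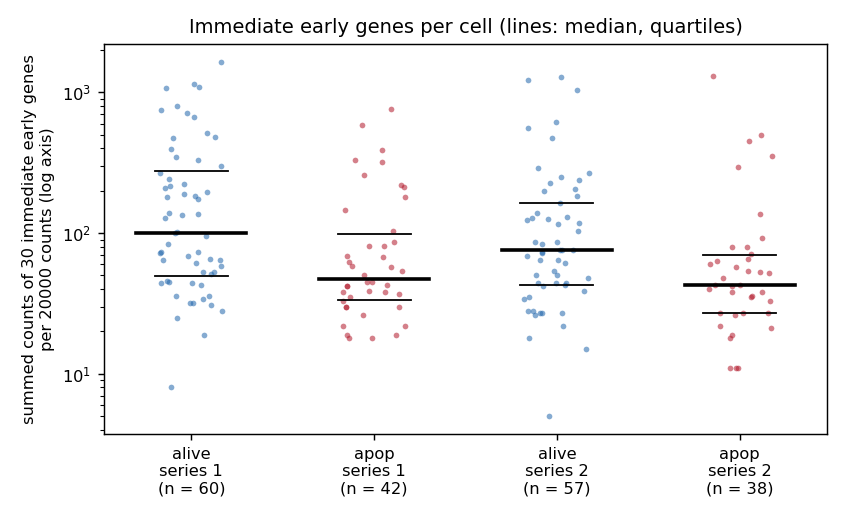
Summed counts of the 30 immediate early genes per cell at 20000 counts of annotated genes, on a log axis, by titled group and index series; each point is 1 cell, thick lines are medians and thin lines quartiles. Apop medians are 47.5 and 43 and alive medians 100.5 and 76, and the ranges overlap.

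Heat shock genes can be induced by the same handling. Of 12 tested, 1 was 2-fold or more higher (8.6% of all genes tested) and none lower (13%), with a median of −0.12. *Dnajb1*, a co-chaperone, was at 259.4 and 397 CPM (−0.62), *Hspa1a* at 216.9 and 304 CPM (−0.49) and *Hspa1b* at 384 and 542 CPM (−0.50). These inducible chaperones were lower in apop cells within 2-fold, and *Hspa1a* was at 0.07 in series 2. *Bag3*, their exchange factor, was at 69.2 and 99.9 CPM (−0.53). The constitutive *Hsp90ab1* was at 1040 and 798 CPM (0.38, with 0.35 and 0.41 in the series). *Hspe1*, at 20.3 and 10.1 CPM, overlaps *Hspd1* on the other strand.

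The 12 lowest ratios by the naming rule, which required at least 50 CPM, a count in 30% of cells of the higher group and the same sign in both series, held 4 immediate early genes: *Nr4a1*, *Jund*, *Dusp1* and *Ccn1*. Of the 4269 genes at 50 CPM or more, 23 are on the immediate early list. Their share among genes that pass the whole rule was not counted. The other genes of these 12 were spread over functions. *Mxra8*, a membrane protein, was at 17.6 and 63.8 CPM (−1.86, with −2.08 and −1.71 in the series). *Atg7*, the activating enzyme of autophagy, was at 15.4 and 53.7 CPM (−1.80, with −1.80 and −1.89), but at −0.01 among cells of 50000 to 300000 counts. *Ust*, a sulfotransferase of glycosaminoglycans, was at 26.1 and 74.6 CPM (−1.52), *Ssh2*, a cofilin phosphatase, at 25.4 and 66.4 CPM (−1.38), and *Homer3*, a scaffold protein, at 24.3 and 62.2 CPM (−1.36). *Homer3* was at 0.24 in that depth range. *Map4k5*, a kinase, was found in 26.3% of apop and 46.8% of alive cells, at 24 and 56.9 CPM (−1.25). *Slc6a9*, a glycine transporter, was at 30.5 and 72.1 CPM (−1.24), and *Gfra1*, a receptor of GDNF, at 65.6 and 153.6 CPM (−1.23).

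The 12 highest ratios held no immediate early gene. Only 23 of the 4269 genes at 50 CPM or more are on that list, so nothing is read from this. *Isyna1* (ENSMUSG00000019139.10, chromosome 8 of GRCm39 from 71047023 to 71049940), the enzyme that makes inositol phosphate from glucose phosphate, was at 84.3 and 19.6 CPM (2.10, 1.98 to 2.22), with 1.82 in series 1 and 2.5 in series 2. It had a count in 37.5% of apop cells (30 of 80, 26.9 to 49) and 17.7% of alive cells (22 alive cells, 11.5 to 25.6). *Nup62*, a nuclear pore protein, was at 76.7 and 26 CPM (1.56), but at −0.04 among cells of 50000 to 300000 counts. *Abhd16a*, a lipase that acts on phosphatidylserine, was at 56.3 and 19.9 CPM (1.5), and its ratio at 20000 counts per cell was 0.13. *Nol11*, a ribosome biogenesis factor, was at 55.2 and 20.9 CPM (1.4). *Zbtb37*, at 92.7 and 39.2 CPM (1.24), overlaps *Gas5* on the other strand, which was at 67.2 and 36.8 CPM, so these cannot be told apart. *Mme*, the peptidase neprilysin, was at 97.5 and 42 CPM (1.21), and at −0.30 in that depth range. *Sytl2*, a vesicle transport protein, was at 72.5 and 32.2 CPM (1.17) and found in 35% and 16.9% of cells. *Usp40* (1.20), which overlaps *Dgkd* on the other strand, *Cggbp1* (1.20), *Abce1* (1.17), *Cc2d1a* (1.17) and *Ints10* (1.17) completed the list.

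**Figure D4:**
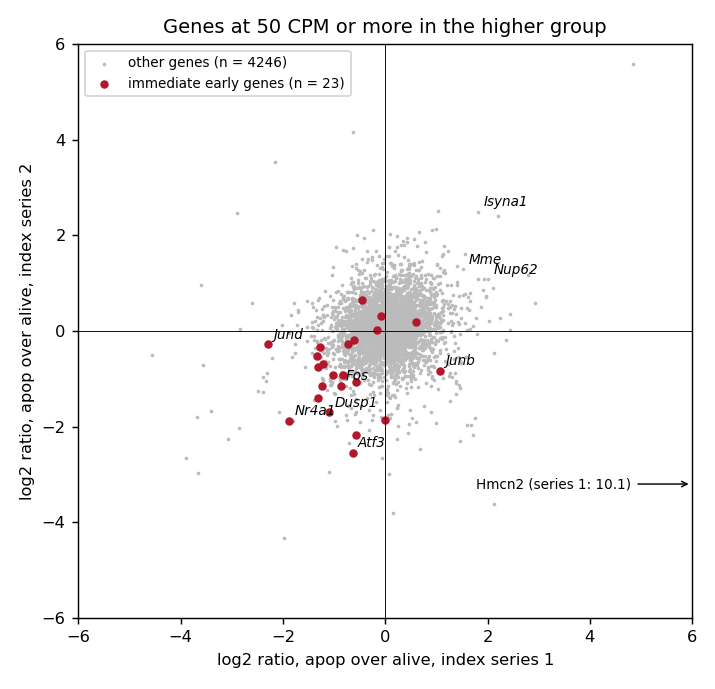
Log2 ratio of apop over alive CPM in index series 1 against index series 2 for the 4269 genes that reached 50 CPM in either group; immediate early genes are red. 1 gene, *Hmcn2*, lies beyond the axis at 10.08 in series 1 and −3.20 in series 2, and 18 of the 23 red points are below 0 in both series.

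The genes chosen to characterise these cells differed little between the titles, except *Atf3*. *Rxra*, the retinoid X receptor alpha (ENSMUSG00000015846.15, GRCm39, chromosome 2, bases 27566452 to 27653330), was at 497 and 426 CPM (0.22, 0.19 to 0.26), with −0.25 in series 1 and 0.63 in series 2. Its level per cell had a median of 412 CPM in apop and 308 CPM in alive cells, and highest values of 1975 and 1571 CPM. It was found in 96.3% (77 of 80) and 92.7% of cells at equal depth. *Rarg* (ENSMUSG00000001288.15, chromosome 15 from 102143373 to 102165952), the retinoic acid receptor gamma, was at 516 and 431 CPM (0.26, with 0.18 and 0.37), with medians of 505 and 400 CPM and with a count in 93.8% and 93.5% of cells. *Mertk*, a receptor for bridged phosphatidylserine, was at 222.04 and 200 CPM (0.15, with −0.12 and 0.50) and found in 72.5% (58 of 80, 61.4 to 81.9) and 76.6% (95 alive cells, 68.2 to 83.7) of cells. *Cd34* (ENSMUSG00000016494.9, chromosome 1 from 194621029 to 194647172), the surface protein used in the sort, was at 481 and 575 CPM (−0.26, with −0.66 and 0.14) and found in 70% and 66.1% of cells. In 3 of these 4 genes the series differed in sign.

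The title apop could be set beside the transcripts of the death machinery. Of the BCL2 family, which controls the release of proteins from mitochondria, 12 of 16 genes were tested, with a median of 0.24. Of the 12, 3 were 2-fold or more higher (8.6% of all genes tested) and 2 were 2-fold or more lower (13%). All of these 5 were under 50 CPM, where 1118 of 9537 genes were 2-fold or more higher and 1730 lower. *Bad*, a death agonist, was at 10.5 and 5.04 CPM (1.05), and at −0.02 among cells of 50000 to 300000 counts. It overlaps *Gpr137* on the other strand, which was at 23.5 and 10.9 CPM, so these cannot be told apart. The pore proteins *Bak1*, at 16.5 and 4.88 CPM (1.76, with 3.79 and 0.03 in the series), and *Bax*, at 8.20 and 3.44 CPM (1.25), were higher in apop cells, while the p53-induced activator *Bbc3*, at 2.07 and 9.45 CPM (−2.19), and the protective *Bcl2l2*, at 12.4 and 31.2 CPM (−1.33), were lower. *Bax* was at −0.31 when cells with markers of other cell types were left out. The protective *Bcl2* was at 50.3 and 28.9 CPM (0.80), *Mcl1* at 123.4 and 100.9 CPM (0.29) and *Bcl2l1* at 64.1 and 58.1 CPM (0.14). Of 21 caspase and death receptor genes tested, none differed by 2-fold, and the median was 0.06. *Casp9* was at 26.7 and 23.2 CPM (0.21), *Casp8* at 26.3 and 16.8 CPM (0.65), *Casp2* at 117.7 and 67.9 CPM (0.79) and *Tnfrsf1a*, the TNF receptor, at 303.5 and 329 CPM (−0.12). *Diablo*, which unblocks caspases, was at 44.4 and 23.6 CPM (0.91).

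Targets of p53 gave a median of 0.08 over 14 genes, with 1 at 2-fold or more higher, beside 8.6% of all genes tested. That gene was *Eda2r*, at 7.30 and 0.92 CPM, with 66.4% of its apop counts in 1 cell. *Trp53* itself was at 194.7 and 148.6 CPM (0.39), *Cdkn1a*, the cell cycle inhibitor, at 56.6 and 59.6 CPM (−0.07), and *Perp*, an apoptosis and desmosome gene, at 1016 and 1226 CPM (−0.27). In the unfolded protein and integrated stress response, 15 genes had a median of 0.19, with 2 at 2-fold or more higher. *Hspa5*, the chaperone of the endoplasmic reticulum, was at 190 and 137.7 CPM (0.46), and *Atf4* at 31.6 and 33.4 CPM (−0.08). *Chac1*, a late target of this response, was at 8.98 and 0.43 CPM (4.38), with 56.8% of its apop counts in 1 cell. *Ddit3*, at 6.20 and 3.08 CPM, overlaps *Mars1* and *Mbd6*.

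Medians of the corpse clearance lists were near that of all genes. Of the receptors, 10 of 16 were tested, with a median of 0.06. The TAM-family members *Axl*, at 244.96 and 233.7 CPM (0.07), and *Tyro3*, at 70.8 and 71.4 CPM (−0.01), were near 0, as were the integrin *Itgav*, at 337 and 323 CPM (0.06), and *Lrp1*, at 632 and 554 CPM (0.19). The members beyond 2-fold were *Stab1* and *Itgb3*, which were lower, and *Megf10*, which was higher at 6.26 and 0.74 CPM, and all were under 50 CPM. *Stab1* was at 1.87 and 28.4 CPM, with all alive counts in 1 cell. Among the bridging molecules, with a median of 0.08 over 9, *Gas6* was at 132.6 and 123.6 CPM (0.10), *Mfge8* at 361 and 442 CPM (−0.29) and *Thbs1* at 2744 and 3122 CPM (−0.19). *Anxa1* was at 230.8 and 146.7 CPM (0.65, with 0.99 and 0.29). Complement *C1qa* and *C1qb* were each in 1 alive and 1 apop cell at equal depth.

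The engulfment machinery gave a median of 0.06 over 15 genes. *Rac1*, the GTPase that drives uptake, was at 95.7 and 163.1 CPM (−0.77, with −1.20 and −0.46) and found in 71.3% and 81.5% of cells, and *Dock1* at 196.3 and 159.1 CPM (0.30). The lipid exporter *Abca1* was at 536 and 366 CPM (0.55, with 0.04 and 0.94), and *Abca7* at 48.3 and 19.8 CPM (1.29, with 1.53 and 1.02) with 34% of apop counts in 1 cell. *Elmo1*, the partner of Dock1, was at 34.8 and 18.7 CPM (0.90), and *Gulp1*, an adaptor, at 1.94 and 8.28 CPM (−2.10). Genes of phosphatidylserine exposure had a median of −0.01 over 9. The scramblase *Ano6* was at 325 and 269.2 CPM (0.27), and the flippase genes *Atp11a* and *Tmem30a* were at 265.6 and 206.1 CPM (0.37) and at 131.2 and 186.5 CPM (−0.51). *Xkr8*, a caspase-activated scramblase, was at 15.5 and 4.48 CPM, but 87.1% of its apop counts were in 1 cell and it overlaps *Eya3*. *Xkr4* was at 0.45 and 7.74 CPM (−4.10).

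Of the lysosome list 34 of 35 genes were tested, with a median of −0.09. *Ctsh*, a protease, was at 67.4 and 28.5 CPM (1.24, with 1.71 and 0.10) and 27.3% of its apop counts were in 1 cell. *Smpd1*, acid sphingomyelinase, was at 29.8 and 64.3 CPM (−1.11, with −1.22 and −1.03), and *Glb1*, at 25.4 and 12 CPM (1.08), overlaps *Tmppe* on the same strand. The membrane protein *Lamp1* was at 134.6 and 236.7 CPM (−0.81, with −1.32 and −0.48) and found in 76.3% (65.4 to 85.1) and 91.9% (85.7 to 96.1) of cells. *Ctsd* was at 383 and 440 CPM (−0.20), and *Psap* at 1351 and 1406 CPM (−0.06).

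All 4 retinoid receptors that were tested lay between 0.07 and 0.26 in the pooled sums. Beside *Rxra* and *Rarg* these were *Rara*, at 75.0 and 68 CPM (0.14, with 0.31 and −0.04 in the series), and *Rxrb*, at 31.3 and 29.8 CPM (0.07, with 0.35 and −0.08). Of the 4, only *Rarg* was above 0 in both series. Genes that make, carry or break down retinoids were scarce. Of 16, 10 were tested, of which 5 were 2-fold or more lower (13% of all genes tested) and 1 higher (8.6%). The median was −1.17, and it became −0.13 at 20000 counts per cell. *Stra6*, the retinol transporter, was at 0.06 and 5.55 CPM with 81.8% of the alive counts in 1 cell, and *Crabp1*, a carrier of retinoic acid, was at 16.2 and 0.99 CPM with 86.8% of the apop counts in 1 cell.

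Markers of the bulge and of basal epithelium were present in both groups. Bulge stem cell genes gave a median of −0.09 over 17 and none differed by 2-fold. *Krt15* was at 1454 and 1197 CPM (0.28, with 0.30 and 0.25) and found in 97.5% and 93.5% of cells, *Lgr5* at 1350 and 1321 CPM (0.03), *Sox9* at 965 and 1106 CPM (−0.20), *Nfatc1* at 693 and 740 CPM (−0.09) and *Postn* at 4818 and 4388 CPM (0.14). *Itga6*, the sort integrin, was at 410 and 335 CPM (0.29). *Tbx1* was at 221.004 and 378 CPM (−0.77, with −1.24 and −0.42), and *Tcf7l1* at 30.6 and 46.2 CPM (−0.59). Basal epithelial genes had a median of 0.14 over 14, with none beyond 2-fold. *Krt5* was at 9529 and 8704 CPM and found in every cell of both groups, *Trp63* at 1056 and 923 CPM, and *Krt14* at 1380 and 1907 CPM (−0.47). *Krt17* was at 624 and 435 CPM (0.52).

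Genes of neighbouring compartments were scattered. The hair germ list had a median of 0.03 over 11, the upper follicle list 0.26 over 13 and the inner bulge list 0.20 over 7. In this order 0, 3 and 2 members were 2-fold or more higher, beside 8.6% of all genes tested. At 2-fold or more lower were 2, 4 and 2, beside 13%. *Lrig1*, an upper follicle marker named after its values were seen, was at 322 and 193.4 CPM (0.73, with 0.78 and 0.72) and found in 78.8% (68.2 to 87.1) and 68.5% (59.6 to 76.6) of cells. *Sprr1a* and *Krt1*, genes of differentiation, went opposite ways, at 91.1 and 17.8 CPM in 10% and 7.26% of cells and at 0.65 and 16.2 CPM in 1.25% and 4.84% of cells. *Timp3*, a protease inhibitor of the inner bulge, was at 107.1 and 38.1 CPM (1.49, with 2.10 and 0.90). Matrix and guidance genes had a median of 0.06 over 18. The tenascin *Tnc* was at 1025 and 681 CPM (0.59, with 0.09 and 1.02), and *Fn1* at 87.7 and 351 CPM (−2.0), with 57.3% of the alive counts in 1 cell. BMP and TGF-beta genes (median −0.12 over 11) and YAP targets (0.03 over 9) held 0 and 1 gene beyond 2-fold.

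Transcripts of the mitochondrial genome were slightly lower in apop cells as a group: 12 of 13 were below 0, beside 50.9% of all genes tested. The median of −0.27 became −0.098 at 20000 counts per cell. Below 0 in both series were 7, beside 26.9% of all genes tested. *mt-Nd1* was at 1796 and 2465 CPM (−0.46, with −0.41 and −0.58) and *mt-Nd2* at 286.9 and 425 CPM (−0.57, with −0.63 and −0.56). Nuclear genes of the respiratory chain went the other way, with a median of 0.35 over 20. Above 0 were 13 and below 0 were 7, beside 50.9% of all genes tested that were below 0. Of these 20, 2 were 2-fold or more higher (8.6% of all genes tested) and 1 lower (13%). The median was 0.12 at equal depth and 0.09 with cells weighted equally. *Sdhc*, a subunit of complex II, was at 16.2 and 38.2 CPM (−1.24), *Ndufa1* at 6.07 and 2.59 CPM (1.23), and *Cox6c* overlaps the more abundant *Vps13b*. Glycolysis genes had a median of 0.19 over 14, and 0.05 with cells weighted equally. Above 0 were 12 and below 0 were 2, beside the same 50.9%. *Hk2* was at 64.4 and 22.3 CPM (1.53), with 42.6% of its apop counts in 1 cell, and *Pgk1* at 37.2 and 17.6 CPM (1.08). Cholesterol synthesis had a median of 0.27 over 15, with 0.29 in series 1 and −0.24 in series 2. *Malat1*, a nuclear RNA that gains share when cytoplasm is lost, was at 6367 and 6851 CPM (−0.11) and found in every cell of both groups. Among cells of 50000 to 300000 counts its ratio was 0.26, so its direction depended on depth, and loss of cytoplasm was not tested.

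Transcripts of cycling cells were in few cells. Of the S phase and mitosis list 4 of 12 genes were 2-fold or more higher, beside 8.6% of all genes tested. The median was 0.63, but it was 0.91 in series 1 and −0.44 in series 2. *Mki67* was at 187.4 and 121.9 CPM and found in 8.75% and 5.65% of cells, with 57.5% and 64% of the counts in 1 cell of each group, and *Mcm3*, at 53.4 and 19.2 CPM, had 45.6% of the apop counts in 1 cell. Cytokines and chemokines had a median of −0.18 over 7. *Cxcl14*, the abundant chemokine of the follicle, was at 1083 and 1100 CPM (−0.02). *Csf1* was at 89.6 and 15.1 CPM, with 72.8% of the apop counts in 1 cell. Interferon response genes had a median of 0.28 over 9, with 3 at 2-fold or more higher and 0 lower, beside 8.6% and 13% of all genes tested. *Irf1* was at 53.1 and 9.00 CPM with 53.5% of its apop counts in 1 cell, and *H2-D1*, a class I antigen named after its values were seen, was at 437 and 256.7 CPM (0.77, with 1.26 and 0.50).

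**Figure D5:**
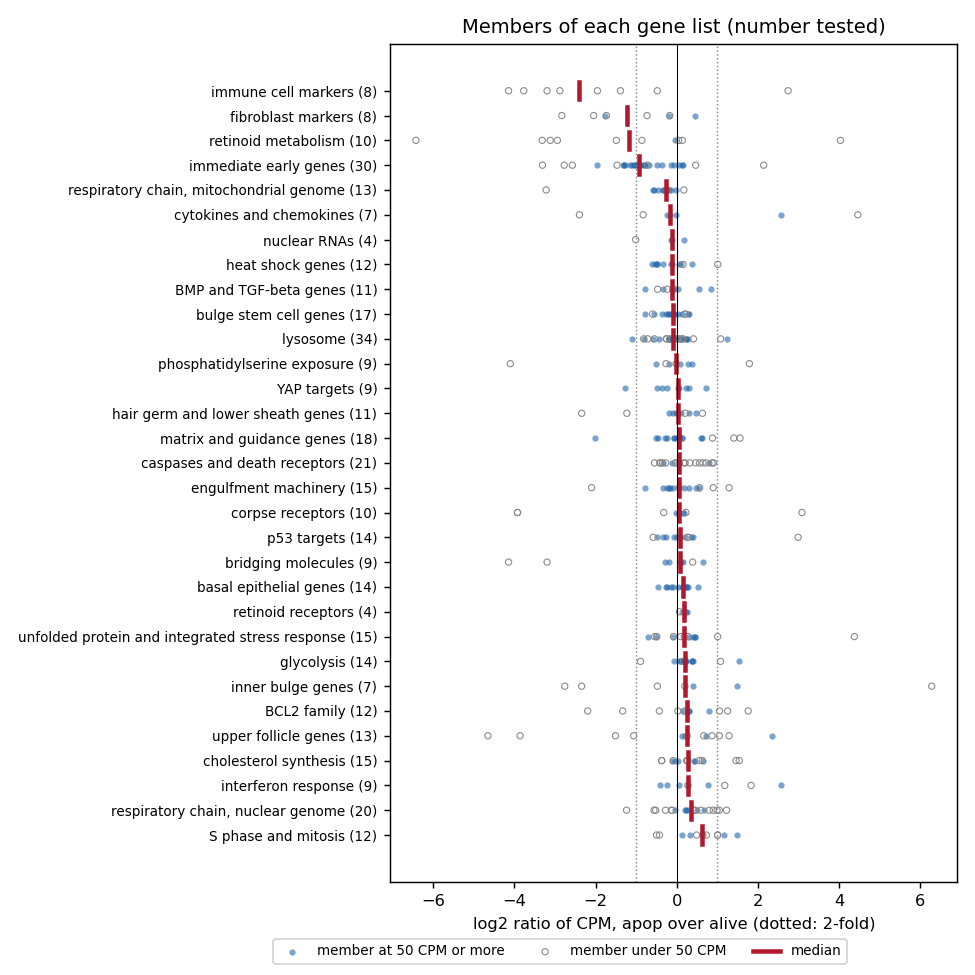
Log2 ratio of apop over alive CPM of every tested member of 31 gene lists, ordered by the list median (red bar); filled points are members at 50 CPM or more and open points are rarer. The immediate early genes sit at −0.92 with most filled members below 0, while the 3 lists at lower medians hold mostly rare genes.

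Markers of other cell types were found in some cells of both groups. Of 15 immune genes, 8 were tested and none reached 50 CPM. At 2-fold or more lower in apop cells were 6, beside 13% of all genes tested, and the median was −2.42. The sign turned in series 2 (4.47), and 1 alive cell held 98.8% of the alive counts of *Csf1r* and all of those of *C1qa*, *C1qb* and *Stab1*. *Cd74* was at 19.3 and 2.88 CPM. Fibroblast genes had a median of −1.23 over 8, and the list summed to 898 and 1012 CPM, with up to 43354 and 61598 CPM in a single cell. *Col1a1* was at 643 and 474 CPM, and 87.7% of the alive counts of *Col3a1* were in 1 cell. The melanocyte factor *Mitf*, which epithelial cells also express, was at 200 and 217.6 CPM, while *Dct* was at 5.3 and 4.30 CPM. Of 7 endothelial markers 1 was tested. The summed level of these lists exceeded 1000 CPM in 23 apop and 29 alive cells. Without these, the immediate early genes had a median of −0.87, and the part of other cell types in the remaining results was not tested. *Xist* was at 2732 and 2198 CPM, and no Y-linked gene of the list reached 100 counts.

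On the preceding day of catagen (CatVI, postnatal day 17), cells titled Phago apop and Phago alive gave a further apop and alive pair, from another sort. Only 15 apop and 28 alive cells passed (17.6% and 17.4%), and 5232 genes had 100 or more counts. Their median ratio was −0.13, with 624 at 2-fold or more higher and 1080 lower (20.6%). Of 19 immediate early genes tested, 8 were 2-fold or more lower and 2 higher, and the median was −0.87. *Fos* was at 133.9 and 275.6 CPM (−1.04), *Fosb* at 114.5 and 389 CPM (−1.76), *Atf3* at 31.7 and 97.7 CPM (−1.62) and *Dusp1* at 58.1 and 283.4 CPM (−2.29). *Egr1* was higher in apop cells there, at 437 and 258.5 CPM (0.76), and *Klf4* too, at 73.1 and 34.2 CPM (1.10). *Jun* was at 616 and 753 CPM (−0.29). Cell by cell the gap was small: at 20000 counts the 30 genes summed to a median of 38 in 15 apop cells and 43 in 25 alive cells. *Rxra* was at 410 and 366 CPM (0.16), *Rarg* at 110 and 173.5 CPM (−0.66) and *Mertk* at 83.7 and 132.9 CPM (−0.67). *Isyna1* was lower in the CatVI apop cells, at 13.2 and 70.4 CPM (−2.41).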

How the data were processed

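Smart-seq2 libraries of single sorted cells were analysed. Per the labels and the study's methods, the authors aligned reads with STAR 2.6 to mm39, quantified them with Salmon 1.4.0 and summed them per gene, and the deposited estimated counts carry no normalization and no filter on cells or strand. The library kit does not mark strand. Estimated counts were rounded to whole numbers. Identifiers in the GENCODE annotation of GRCm39 were used for CPM, since unannotated ones held most counts, and cells with 2000 or more detected genes over all identifiers were kept. Cells of each title (92 apop and 125 alive, together 217) were summed, genes with 100 or more counts over both groups were tested for size only, a group at 0 was set to 3 counts, and a gap of 2-fold was the limit. Depth limits the precision: a cell held 6159 to 1074305 annotated counts. For equal depth, counts were drawn without replacement to 20000 or 50000 per cell, and shares have exact binomial (Clopper-Pearson) intervals at 95%. Doublets were not called, since the study screened wells by PCR for several cells.

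The members and the 34 gene lists were chosen with earlier results of these data known. Named genes are *Rxra*, *Rarg*, *Mertk*, *Cd34* and *Atf3*, list members by size of ratio or defining role, and those with the 12 highest and the 12 lowest ratios among all that had 50 CPM in the higher group, a count in 30% of its cells, no cell above 20% of its counts, and the same sign in both index series and as a mean over cells. *Lrig1*, *H2-D1*, *Tnc*, *Hmcn2* and list members with smaller ratios were named after their values were seen. Promoters are genome sequences of GRCm39 around the start of the transcript marked canonical in the GENCODE annotation, found for all 30 immediate early genes. Alternatives concerned scaling (median of ratios, or TMM from edgeR 4.0.16, run in R 4.3.3), weight and depth of cells, index series, filters and rounding. The rest ran in Python 3.11.15 with scipy 1.17.1, numpy 2.4.6, matplotlib 3.10.9 and pandas 2.3.3. The ratios and intervals were tested on simulated sums that had counting error and no spread between cells. That test could not show whether the intervals fit the real sums.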

Additional observations from a re-analysis of the deposited data

Results flagged for a closer look

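The ratio of apop over alive took opposite signs at the stages for *Isyna1* and for *Timp3*. *Isyna1* was at 2.10 on the log2 scale in CatVII, in both index series, and at −2.41 in CatVI, where 15 apop and 28 alive cells passed. *Timp3* was at 1.49 in CatVII and at −1.22 in CatVI. The difference between the stages was not tested, since each titled group is 1 sample.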

How the results depend on the processing

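No paired analysis was possible because cells carry no animal and each titled group is 1 sample. Genes at 2-fold or more higher and lower made up 8.6% and 13% of the 13806 tested, 1.68% and 1.87% of 6254 at 20000 counts per cell, 3.56% and 4.53% of 8794 at 50000, 2.65% and 3.92% of 7988 with 1000 or more counts per gene, 27.7% and 14.4% of 25589 with 1 or more, and 13.1% and 10.2% of 9513 among cells of 50000 to 300000 counts. The apop over alive ratio of median detected genes (1.05 at 20000 counts) was 0.90 without thinning, and that of counts per ERCC count (1.24) was 1.10 with all gene identifiers. Counting all identifiers moved every ratio up by 0.13 and the median of all genes to 0.12. The immediate early genes kept a negative median in every alternative run, taken over the members with 100 or more counts in each, from −1.12 among cells of 50000 to 300000 counts to −0.77 without the 5 deepest cells per group.

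In that depth range the ratio was 0.24 for *Homer3*, −0.54 for *Irf1*, −0.017 for *Bad*, −0.30 for *Mme*, −0.044 for *Nup62*, 0.34 for *Col3a1* and −5.43 for *Xkr8*, and the fibroblast list was at 0.048. In index series 2 it was 0.42 for *Itgb3*, 3.91 for *Csf1r*, 0.58 for *Col3a1*, 2.01 for *C1qa*, 4.67 for *C1qb*, 4.88 for *Stab1*, −0.51 for *Xkr8*, −3.20 for *Hmcn2* and 0.58 for the fibroblast list, and in series 1 −0.86 for *Ier5*. Without cells with markers of other cell types it was −0.31 for *Bax*, −1.76 for *Megf10*, 0.69 for *Csf1r*, 1.43 for *C1qb*, 3.89 for *Stab1*, −0.99 for *Xkr8* and 3.18 for the immune list. As a mean over cells *Xkr8* was at −0.14 and the immune list at 0.015. At 50000 counts *Xkr8* was at −0.15 and *Ddit3* at −0.066, and the fibroblast list was at 0.15 at 20000 counts. All of these had the opposite sign in the pooled sums, where each was at 2-fold or more, and the cause was not tested. Genes with smaller pooled ratios changed sign too and are not all listed. Among cells of 50000 to 300000 counts *Mfge8* was at 0.61, *Btg2* at −1.40, *Bcl2l1* at −0.46 and *Socs3* at 0.14. Of 523 list medians under the alternatives, 72 had the opposite sign to the pooled median, in 25 of the 31 lists. None of these was of the immediate early genes.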

Other observations

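The cell whose labels name different stages passed the filter with 2674 detected genes and 10456 counts of annotated genes. Its immediate early genes summed to 4304 CPM, and it belongs to no group.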
